A study of Mus with 7 samples.

Results

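The immediate-early AP-1 and EGR genes described here are Egr1, Egr2, Fos, Fosb, Jun, Junb, Jund, Ier2, Ier3 and Atf3, chosen by symbol from the gene list of the deposited count tables. All 10 symbols were found among the 31053 genes listed, each with a single gene identifier. They were measured by droplet single-cell RNA-seq of 3′ transcript ends in wild-type mouse fetal liver-derived macrophages (FLMs), primary cells from C57BL/6J fetuses that renew themselves in culture with GM-CSF. Con cells were in 10% FBS and were collected before any treatment. For the other 6 libraries, FLMs were held in 0.25% FBS for 24 h with either 25 µM docosahexaenoic acid (DHA, an omega-3 fatty acid) carried on 8.3 µM BSA, or 8.3 µM BSA alone (Veh). Veh.LPS.0 and DHA.LPS.0 were collected at that point. For Veh.LPS.1, DHA.LPS.1, Veh.LPS.4 and DHA.LPS.4 the medium was taken off and replaced by medium with 20 ng/mL LPS, a bacterial ligand of TLR4, for 1 or 4 h. No library had a change of medium without LPS, so the effects of LPS and of fresh medium cannot be told apart. All cells were lifted with Accutase, and start times were staggered so that the libraries were collected together.

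Immediate-early genes are transcribed within minutes of a stimulus by factors already present in the cell, without new protein synthesis, and many of their mRNAs decay fast. AP-1 is a dimer of basic leucine zipper proteins: Jun, Junb and Jund pair with each other or with Fos family proteins, and Atf3 belongs to the related ATF group. Egr1 and Egr2 are zinc finger factors. In macrophages, TLR4 drives these genes through MAP kinases and NF-κB, and Atf3 is known as a brake on inflammatory transcription after TLR4 signals.

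Levels are given as CPM (counts scaled to a common library total), the unique molecular identifiers (UMIs) of a gene summed over a library's cells and divided by that library's total. Cells had more than 20000 UMIs, at least 2000 genes and under 20% mitochondrial (mt-) UMIs, which left 692 to 3073 cells and 22045775 to 125716982 UMIs per library. Each condition had 1 library, so no difference has a replicate check, no test was made, and every interval in parentheses is an exact 95% interval that covers counting error only. Barcodes with 20% or more mt- UMIs were 29.0% of all barcodes in Con, 35.8 to 54.7% in Veh and 74.4 to 80.0% in DHA. Some of these can have missed the limits on UMIs or genes as well. The 9 macrophage markers summed to 5817 to 7089 CPM over the 7 libraries, with none at 0. Mast cell markers were all at 0, and those of neutrophils, erythroid, stromal and lymphoid cells summed to at most 6.99 CPM and those of hepatocytes to at most 7.66 CPM. Any 2 libraries shared at most 22 barcodes.

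After 1 h of LPS in Veh cells, 9 of the 10 genes reached the limit on cells, UMIs in 50% or more of the cells in one or both libraries compared. Of these 9, 8 were more than 2-fold higher in Veh.LPS.1 than in Veh.LPS.0, while 2.39% of all 5777 genes past the same limits were. Jund, at 1.79-fold, was the gene of the 9 that did not pass, and none was lower, against 0.606% of all genes. Egr1, Egr2 and Fos reached the limit on cells at 1 h and not at 0 h, so they had to differ to be counted. The other 6 genes reached it at both hours, and 5 of them were higher. Fosb was outside the count because its UMIs were in too few cells.

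In DHA cells, all 9 genes past the limit on cells were higher at 1 h than at 0 h and none was lower, against 2.52% and 0.586% of the 6315 genes compared. Egr1, Egr2 and Fos again reached the limit at 1 h alone. Jund was just past the limit at 2.04-fold.

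**Figure D1:**
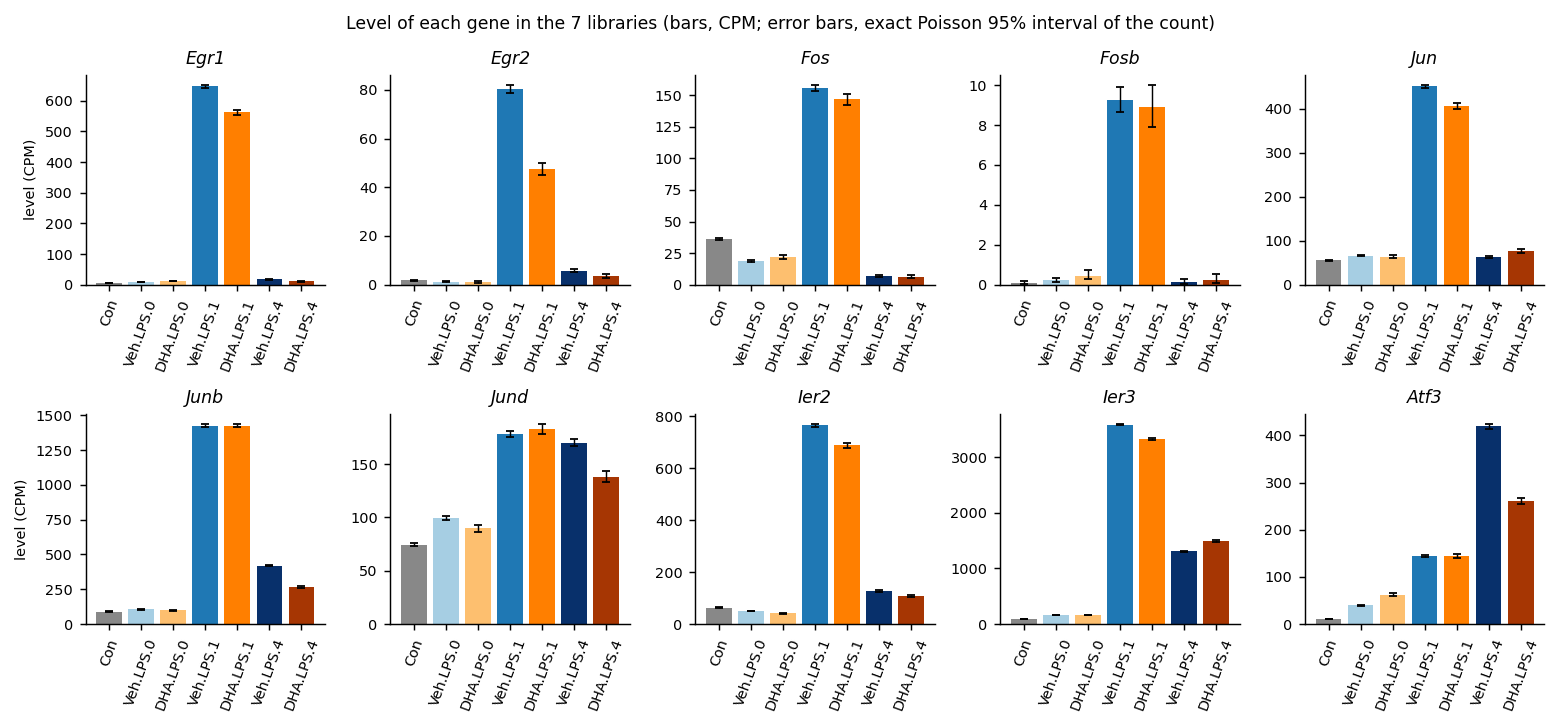
Level in CPM (vertical axis, from 0, with its own scale in each panel) of each of the 10 genes in the 7 libraries (bars), with exact Poisson 95% intervals of the count. All panels but that of Atf3 have their highest bars at 1 h of LPS, Atf3 has its highest bar in Veh.LPS.4, and the Jund bars span 2.45-fold.

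Of the 10 genes, Egr1 and Egr2 had the highest ratios of 1 h to 0 h in both treatments. Egr1 (ENSMUSG00000038418), a zinc finger factor of growth and inflammatory programmes, had 6.37 CPM in Con, 9.66 in Veh.LPS.0, 12.5 in DHA.LPS.0, 648 in Veh.LPS.1 (642 to 653), 562 in DHA.LPS.1 (553 to 570), 17.8 in Veh.LPS.4 and 10.5 in DHA.LPS.4. Both 1 h libraries stood far above the other 5, and the intervals of DHA.LPS.4 overlapped those of both 0 h libraries. The ratio of 1 h to 0 h was 67.0 in Veh and 45.0 in DHA. Of the gain in CPM at 1 h, 1.27% was left at 4 h in Veh. In DHA the 4 h level was below that at 0 h, a direction that TMM and RLE scaling turn.

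Egr2 (ENSMUSG00000037868, 10:67534469-67542188 in GRCm38), a factor of myeloid and nerve sheath development, had 1.81 CPM in Con, 1.20 in Veh.LPS.0, 1.06 in DHA.LPS.0, 80.4 in Veh.LPS.1 (78.6 to 82.2), 47.4 in DHA.LPS.1 (45.0 to 49.9), 5.67 in Veh.LPS.4 and 3.40 in DHA.LPS.4. Egr2 was above its 0 h level after 4 h in both treatments, at 4.70-fold in Veh and 3.22-fold in DHA. The intervals of the 2 libraries at 0 h overlapped.

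Among the FOS genes, Fos (ENSMUSG00000021250, 12:85473890-85477274), the classic AP-1 partner of Jun, had 36.2 CPM in Con, 18.6 in Veh.LPS.0, 21.7 in DHA.LPS.0, 156 in Veh.LPS.1, 147 in DHA.LPS.1, 6.66 in Veh.LPS.4 and 6.17 in DHA.LPS.4. Fos was thus at its lowest after 4 h of LPS, at 0.357 of its 0 h level in Veh and 0.284 in DHA, and below the level in Con. It was below its 0 h level under each of the alternatives run, with log2 ratios of 4 h to 0 h from -1.63 to -1.04 in Veh and from -2.18 to -1.47 in DHA.

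Fosb (ENSMUSG00000003545, 7:19302696-19310118), which codes for a protein of the same family, was sparse, with 12 UMIs in Con, 22 in Veh.LPS.0, 16 in DHA.LPS.0, 875 in Veh.LPS.1, 284 in DHA.LPS.1, 8 in Veh.LPS.4 and 5 in DHA.LPS.4. In CPM that is 9.26 and 8.93 at 1 h in Veh and DHA, and at most 0.457 in any other library. The 5 libraries outside 1 h formed a chain of overlapping intervals, so no order among neighbours could be read there.

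Among the JUN genes, Jun (ENSMUSG00000052684, 4:95049036-95052222) had 55.7 CPM in Con, 66.3 in Veh.LPS.0, 64.0 in DHA.LPS.0, 451 in Veh.LPS.1, 406 in DHA.LPS.1, 63.7 in Veh.LPS.4 and 76.6 in DHA.LPS.4. The 1 h level was 6.81-fold that at 0 h in Veh and 6.35-fold in DHA. By 4 h Jun was back near its 0 h level, at a ratio of 0.962 in Veh, where TMM and RLE scaling turn the direction, and 1.20 in DHA.

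Junb (ENSMUSG00000052837, 8:84976909-84978748), whose product can restrain that of Jun, had 89.3 CPM in Con, 105 in Veh.LPS.0, 97.9 in DHA.LPS.0, 1427 in Veh.LPS.1, 1426 in DHA.LPS.1, 419 in Veh.LPS.4 and 265 in DHA.LPS.4. The 1 h intervals of Veh and DHA overlapped, whereas those at 4 h did not. At 4 h Junb kept 23.8% of its 1 h gain in Veh and 12.6% in DHA.

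Jund (ENSMUSG00000071076, 8:70697739-70700616), the JUN member known for steady expression in resting cells, had 74.6 CPM in Con, 99.4 in Veh.LPS.0, 89.7 in DHA.LPS.0, 178 in Veh.LPS.1, 183 in DHA.LPS.1, 170 in Veh.LPS.4 and 138 in DHA.LPS.4. Its highest level was 2.45 times its lowest, the narrowest span of the 10 genes. In Veh the 4 h level was 0.955 of that at 1 h, a direction that TMM and RLE scaling turn.

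Atf3 (ENSMUSG00000026628, 1:191170296-191183333), the ATF member, was the gene of the 10 with its highest levels at 4 h. It had 10.1 CPM in Con, 39.7 in Veh.LPS.0, 62.1 in DHA.LPS.0, 144 in Veh.LPS.1, 143 in DHA.LPS.1, 419 in Veh.LPS.4 (414 to 425) and 261 in DHA.LPS.4 (255 to 268). The level in Veh was higher at each later hour, and the 4 h level was 10.6-fold that at 0 h in Veh and 4.21-fold in DHA.

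The IER genes code for proteins outside AP-1. Ier2 (ENSMUSG00000053560, 8:84661331-84662852), which codes for a nuclear protein, had 63.6 CPM in Con, 50.4 in Veh.LPS.0, 41.0 in DHA.LPS.0, 766 in Veh.LPS.1, 688 in DHA.LPS.1, 127 in Veh.LPS.4 and 109 in DHA.LPS.4. Similar shares of the 1 h gain were left at 4 h, 10.8% in Veh and 10.5% in DHA. No neighbours in the order of the 7 levels had overlapping intervals.

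Ier3 (ENSMUSG00000003541, 17:35821713-35822911), an NF-κB target that affects cell survival, had 84.3 CPM in Con, 165 in Veh.LPS.0, 158 in DHA.LPS.0, 3592 in Veh.LPS.1, 3326 in DHA.LPS.1, 1309 in Veh.LPS.4 and 1497 in DHA.LPS.4. It differed from Egr1 and Fos in that much of the gain was still there at 4 h, 33.4% in Veh and 42.2% in DHA. Its 4 h level was the higher one in DHA, at a ratio of 1.14 to Veh (1.13 to 1.16). As a log2 ratio that is 0.19, beside a median of 0.08 over all genes, and it went from 0.07 to 0.34 over the alternatives run.

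Between 1 h and 4 h in Veh, 7 of the 9 genes past the limit on cells were more than 2-fold lower, against 9.93% of the 5852 genes compared, and 1, Atf3, was higher, against 4.44%. Egr1 had a ratio of 0.0275. In DHA, 7 of 9 were lower, against 6.66% of 5464 genes, and Egr1 had a ratio of 0.0187. Ier3 was 1 of these 7 at a log2 ratio of -1.15, and with TMM (-0.96) and RLE (-0.93) it was no longer past 2-fold. None was higher in DHA, against 3.13%, since Atf3 was at 1.82-fold, and Atf3 passed 2-fold with TMM and RLE. In both treatments Egr1, Egr2 and Fos reached the limit on cells at 1 h and not at 4 h, so they had to differ to be counted.

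Against 0 h, 4 of the 6 genes past the limit were higher after 4 h in Veh, against 6.05% of 6297 genes, namely Junb, Ier2, Ier3 and Atf3, and none was lower, against 16.9%. The same 4 genes were higher in DHA, against 5.03% of 6318 genes, and none was lower, against 13.4%. Jun and Jund were neither, though with TMM and RLE scaling Jund passed 2-fold in Veh (log2 ratios of 1.21 and 1.23), and the 4 genes not compared, Egr1, Egr2, Fos and Fosb, had UMIs in fewer than 50% of the cells at both hours.

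The 4 h libraries depend on the scaling more than the others. From 0 h to 4 h, the median log2 ratio of all genes was -0.28 in Veh and -0.24 in DHA with scaling by total UMIs, and 0.15 and 0.06 with TMM factors. From 1 h to 4 h it was -0.18 and -0.13, and 0.16 and 0.06 with TMM. The higher genes as a share of all called genes went from 26.3% to 59.8% for 0 to 4 h and from 30.9% to 60.0% for 1 to 4 h in Veh with TMM, and from 27.4% to 54.2% and from 32.0% to 51.2% in DHA. Relative to the median of all genes, the log2 ratios of 4 h to 0 h in Veh were 3.68 for Atf3, 3.27 for Ier3, 2.28 for Junb, 1.62 for Ier2, 1.05 for Jund and 0.22 for Jun. For the 4 genes in fewer cells they were 2.51 for Egr2, 1.16 for Egr1, -0.43 for Fosb and -1.21 for Fos.

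Veh.LPS.0 was compared with Con, from which it differed in serum, BSA, fresh medium and 24 h of further culture, which cannot be told apart. Of the 7 genes past the limit on cells, 1, Atf3, was higher, at 3.93-fold (3.68 to 4.19), and none was lower, against 2.55% and 0.746% of 6168 genes. Atf3 reached the limit on cells in Veh.LPS.0 and not in Con. Without a filter on barcodes it no longer reached that limit, while its log2 ratio was 1.97 with and without the filter. Ier3, at 1.96-fold, and Fos, at 0.515 of its level in Con, lay just inside the 2-fold limit, and Fos passed it under TMM scaling. Jun, Junb, Jund and Ier2 had ratios from 0.792 to 1.33.

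DHA was then compared with Veh at each hour, with a limit of 1.5-fold. The 3 comparisons share their libraries with those above. They are also those in which the share of barcodes removed by the mt- limit differed most, and the part of that difference in the ratios was not tested.

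At 0 h, 1 of the 6 genes past the limit on cells of 50%, Atf3, was higher in DHA, at 1.56-fold (1.48 to 1.65), against 0.892% of 6276 genes, and none was lower, against 0.685%. The other 5 had ratios between 0.815 for Ier2 and 0.966 for Jun, and the direction of Ier3 (0.957) turns without a filter on barcodes. Without any filter on barcodes Atf3 had a log2 ratio of 0.22 in place of 0.64, and was no longer past the limit.

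At 1 h, with the limit on cells at 25%, Egr2 was the 1 of 9 genes that was lower in DHA, at 0.590 of the level in Veh (0.558 to 0.623), against 1.73% of 7794 genes. None was higher, against 1.33%. The other 8 had ratios from 0.867 for Egr1 (0.853 to 0.882) to 1.03 for Jund (0.998 to 1.06), so differences in these 8 were within 1.5-fold in these cells. Without a filter on barcodes Egr1 passed that limit too (log2 ratio -0.62 in place of -0.21). Junb had a ratio of 0.999 (0.989 to 1.01) and Atf3 of 0.994 (0.961 to 1.03), both with a direction that TMM scaling turns, and the directions of Jund and of Ier3 (0.926) turn without a filter on barcodes.

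At 4 h, Junb and Atf3 were the 2 of 6 genes that were lower in DHA, at ratios of 0.632 (0.614 to 0.650) and 0.623 (0.606 to 0.641), against 2.42% of 7672 genes. None was higher, against 2.22%. Jund had a ratio of 0.814, Ier2 of 0.857, Jun of 1.20 and Ier3 of 1.14, and that of Jun was below 1 without a filter on barcodes. Egr1, at 0.589, and Egr2, at 0.600, were as low as Junb and Atf3 but had UMIs in too few cells to be counted. The Egr1 ratio was also less stable. Over the alternatives run, its log2 value went from -1.46 to -0.27, against -1.03 to -0.65 for Junb and -1.08 to -0.63 for Atf3. With TMM, the share of higher among called genes in this comparison went from 47.8% to 26.8%.

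**Figure D2:**
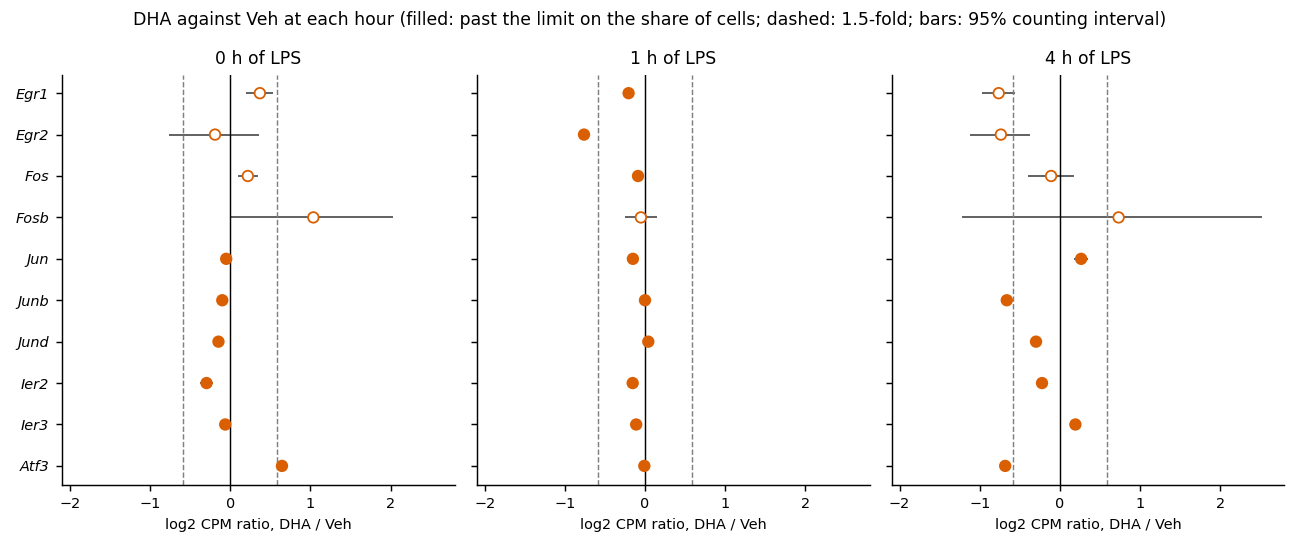
Log2 ratio of CPM in DHA to Veh (horizontal axis) for each gene (rows) at 0, 1 and 4 h of LPS, with 95% counting intervals; filled points passed the limit on cells and dashed lines mark 1.5-fold. Filled points past a dashed line are Atf3 at 0 h (0.64), Egr2 at 1 h (-0.76), and Junb (-0.66) and Atf3 (-0.68) at 4 h.

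Each cell was next thinned to 20000 UMIs, a depth that all cells exceeded, to compare cells at equal depth. No other cell type was present in which to gauge free RNA, so the shares of cells below could not be set against a background. With all UMIs, an Egr1 UMI was in 18.6% of Veh.LPS.0 cells, 98.3% of Veh.LPS.1 cells and 18.3% of Veh.LPS.4 cells, and with thinning in 12.4%, 97.4% and 11.4%. Egr2 was found in 62.5% of Veh.LPS.1 cells and 47.8% of DHA.LPS.1 cells after thinning, and in 71.6% and 63.4% before. Its level and the share of cells were both lower in DHA.

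The median cell had 12 Egr1 UMIs in Veh.LPS.1 and 11 in DHA.LPS.1, and 0 in the other 5 libraries. For Junb the medians were 28 in both 1 h libraries, 7 in Veh.LPS.4 and 4 in DHA.LPS.4. For Ier3 they were 69 and 61 at 1 h, 18 in Veh.LPS.4 and 21 in DHA.LPS.4. For Atf3 they were 2 in both 1 h libraries, 6 in Veh.LPS.4 and 4 in DHA.LPS.4. The differences of DHA from Veh at 4 h in Junb, Ier3 and Atf3 were thus also seen in the median cell. For Egr1 the median could not show a difference at 4 h, since most cells of both libraries held no Egr1 UMI.

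The median number of the 10 genes found in a thinned cell was 4 in Con and Veh.LPS.0, 5 in DHA.LPS.0, 8 in both 1 h libraries and 5 in both 4 h libraries. All 10 were found together in 6.28% of Veh.LPS.1 cells and 4.03% of DHA.LPS.1 cells, and in no cell of the other 5 libraries. With a floor of 3 counts in place of 0, not an exact interval, that allows up to 0.103% in Con and 0.434% in DHA.LPS.4. These limits are for cells with UMIs of all 10 at this depth, not for cells that express them.

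Outside 1 h, part of the Egr1 UMIs was held by few cells, and this part was smallest in Veh.LPS.0 and DHA.LPS.0. The 1% of thinned cells with the most Egr1 held 40.6% of its UMIs in Con, 23.5% in Veh.LPS.0, 20.2% in DHA.LPS.0, 47.3% in Veh.LPS.4 and 55.0% in DHA.LPS.4, and 3.50% or less in both 1 h libraries. Such a share is larger the sparser a gene is, so the contrast with 1 h is in part set by level. For Egr2 it was 52.7% in Con, 52.5% in Veh.LPS.0, 73.3% in DHA.LPS.0, 26.1% in Veh.LPS.4 and 38.3% in DHA.LPS.4. The Egr2 share in DHA.LPS.0 rests on 15 thinned UMIs. For Fosb it was 100% in each library outside 1 h. No other value was possible there, since its 3 to 11 thinned UMIs were fewer than the cells in that 1%. The variance over mean of Egr1 in thinned cells was 22.6 in Veh.LPS.4 and 14.6 in DHA.LPS.4, against 4.10 and 4.75 at 1 h. Both 4 h values rest in large part on a single cell per library, the one with the most Egr1 UMIs. That cell is among the cells of 5 or more Egr1 UMIs given next, and held a large part of their Egr1 UMIs. At 4 h, 13 of 993 Veh.LPS.4 cells (1.31%, 0.699 to 2.23) had 5 or more Egr1 UMIs among 20000, and they held 50.2% of that library's Egr1 UMIs. In DHA.LPS.4, 3 of 692 cells (0.434%, 0.0895 to 1.26) held 39.4%, and in Con, 15 of 2908 cells held 19.9%. At 0 h, 11 of 2481 cells held 10.4% in Veh.LPS.0, and 4 of 698 held 8.47% in DHA.LPS.0. This limit of 5 UMIs was set after the values were seen, and these cells are described without a test.

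The 13 Veh.LPS.4 cells, chosen by their Egr1 UMIs, had 744 Egr1 CPM, and the other cells of that library had 8.96. They also had 289 CPM of Jun against 61.0, 546 of Ier2 against 122, 834 of Junb against 414, 895 of Atf3 against 414 and 148 of Dusp2, a phosphatase that acts on MAP kinases, against 23.7. Fos, at 31.3 against 6.36 CPM on 22 UMIs, and Ier3, at 2078 against 1299 CPM, were higher as well. Jund was lower in them, at 105 against 171 CPM, and so it was in the 3 DHA.LPS.4 cells, at 60.2 against 139 CPM on 5 UMIs. Egr2 differed less, at 7.11 against 5.65 CPM, and rests on 5 UMIs in these cells. Il1b, the gene of an inflammatory cytokine, was lower in them, at 64.0 against 801 CPM, while Tnf, that of an early cytokine, was higher, at 4760 against 2257 CPM. The median depth was 58448 UMIs in these cells and 56235.5 in the others, and none of their barcodes was found in another library. Cells chosen in the same way without LPS showed part of this. In Con, 15 such cells had 292 CPM of Ier2 against 62.3, 174 of Junb against 88.8 and 173 of Tnf against 78.6. In Veh.LPS.0, 11 such cells had 147 against 49.9, 225 against 104 and 362 against 151. Dusp2 was not higher there, at 4.40 against 5.65 CPM in Con and 2.29 against 3.68 in Veh.LPS.0, on 3 and 1 UMIs.

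Without the cells of 5 or more Egr1 UMIs, the Egr1 log2 ratio of 4 h to 0 h went from 0.88 to 0.04 in Veh and from -0.25 to -0.85 in DHA. That of DHA to Veh at 4 h went from -0.76 to -0.49, a ratio of 0.711 (0.586 to 0.859). The cells were chosen by Egr1 itself, so each library's Egr1 level had to fall without them. These values describe how far the ratios rest on few cells and are no check of them.

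**Figure D3:**
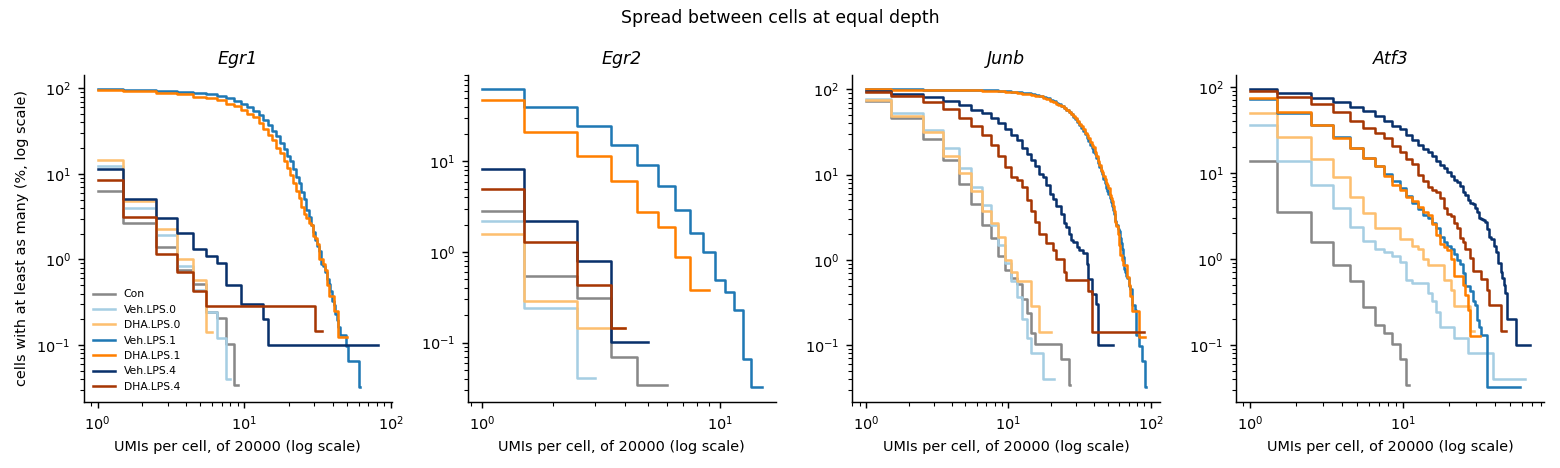
Share of cells (vertical axis, percent, log scale) with at least a given number of UMIs among 20000 (horizontal axis, log scale) for Egr1, Egr2, Junb and Atf3 in the 7 libraries (lines). The Egr1 lines of the 2 libraries at 4 h start below that of Veh.LPS.0, at 11.4% and 8.53% of cells with a UMI. They run out to single cells of 81 and 34 UMIs, out of 338 thinned Egr1 UMIs in Veh.LPS.4 and 151 in DHA.LPS.4.

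Within a library, the genes were weakly related from cell to cell, as Spearman's rho over thinned cells that share the library and the depth. Over the 45 pairs of genes, the median rho was 0.09 in Veh.LPS.1 (3073 cells) and 0.13 in DHA.LPS.1 (795 cells), and at most 0.06 in the other 5 libraries. The highest at 1 h was that of Junb with Ier2, 0.30 in Veh and 0.34 in DHA. In sparse counts such values are given as a description.

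Ier3 went most with Tnf, at a rho of 0.50 in Veh.LPS.1 and 0.49 in DHA.LPS.1, and 0.57 and 0.63 at 4 h. Its relation with Cxcl2, a neutrophil chemokine gene, was 0.20 and 0.21 at 1 h and 0.52 and 0.62 at 4 h, in Veh and DHA. Ier2 had 0.36 and 0.29 with Tnf at 1 h, and Junb 0.35 and 0.32 with Nfkbiz, a nuclear cofactor of NF-κB. Egr1 had 0.28 and 0.20 with the sum of 8 mitosis genes at 1 h. That sum was 1689 CPM in Veh.LPS.1 and 1125 in DHA.LPS.1, and its part in the difference in Egr1 was not tested.

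Other genes of the pathway were described by lists. At 1 h against 0 h in Veh 2.39% of all genes were higher and 0.606% lower, and genes that reach the limit on cells at 1 h alone are among those counted. In that comparison, 3 of 8 AP-1 relatives past the limit were higher, Fosl1 at 9.07-fold, Fosl2 at 3.98-fold and Maff, a small MAF protein gene, at 18.2-fold. Of 3 EGR relatives and their corepressors, Egr3 was higher at 17.8-fold and Nab2, a corepressor of EGR proteins, at 2.34-fold, while Nab1 was at 1.30-fold. All the genes called in these lists, Fosl1, Fosl2, Maff, Egr3 and Nab2, reached the limit on cells at 1 h and not at 0 h. They thus had to differ to be counted. The median log2 ratios of these lists were 0.60 and 1.23, beside -0.09 over all genes.

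Of the regulators upstream, 2 of 6 genes of SRF and its cofactors and 11 of 19 of the MAP kinase cascade reached the limit on cells. None of these 2, Srf at 1.21-fold and Elk3 at 0.854-fold, nor any of these 11, such as Map2k3 at 1.49-fold, passed 2-fold in either direction. Beside 2.39% higher and 0.606% lower over all genes, few or no calls would be met among so few genes anyway. The median log2 ratios of the counted genes were 0.02 and -0.08. Map3k8, of the same cascade, was at 1.82-fold (1.66 to 1.99) but had UMIs in too few cells to be counted. Transcript levels say nothing of the activity of these kinases and factors.

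Of the other immediate-early genes, 11 of 13 were higher, beside 2.39% of all genes, with a median log2 ratio of 1.91. Among them were Dusp1, a phosphatase of MAP kinases, at 23.2-fold, Btg2, an antiproliferative gene, at 19.4-fold, and Zfp36, whose product promotes decay of AU-rich mRNAs, at 13.2-fold. Dusp1, Btg2, Plk3, Csrnp1 and Trib1 reached the limit on cells at 1 h and not at 0 h, so they had to differ to be counted. Of the heat shock genes, whose transcripts can also rise with handling, 1 of 9 was higher, Dnajb1 at 3.84-fold, and Hspa5 was at 1.53-fold. None of the genes in these 6 lists was called lower.

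Between DHA.LPS.1 and Veh.LPS.1, 2 of 16 other immediate-early genes were higher, Klf2 at 2.57-fold (2.42 to 2.72) and Klf10 at 1.89-fold (1.69 to 2.11), both genes of Krüppel-like factors, and none was lower, beside 1.33% and 1.73% of all genes. No gene of the other 5 lists was called in either direction. Egr3 had 0.695 of its level in Veh (0.657 to 0.735), Elk3 0.686 and Dnajb1 0.677. Nr4a1, an orphan nuclear receptor gene, had 0.502 (0.432 to 0.580) but UMIs in too few cells to be counted. At 0 h, without LPS, Klf2 was already higher in DHA, at 3.48-fold (3.27 to 3.70), and Klf10 was at 1.38-fold (1.21 to 1.57).

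At 4 h, 4 of 16 other immediate-early genes were lower in DHA, Csrnp1 at 0.425, Plk2 at 0.486, Zfp36 at 0.594 and Btg2 at 0.600, and 2 were higher, Klf2 at 4.04-fold and Klf4 at 1.61-fold, beside 2.42% and 2.22% of all genes. Of 11 AP-1 relatives, Mafk was lower at 0.616. These 7 genes were named because they were called, after their values were seen. Of the 2 that were higher, Klf2 was so at 0 h too, at 3.48-fold, and Klf4 was at 0.982 there. Of those that were lower, Plk2 was at 1.81-fold (1.65 to 1.99) and Csrnp1 at 1.37-fold (1.17 to 1.60) at 0 h. Zfp36 was at 1.05, Btg2 at 0.974 and Mafk at 0.897 there. All of these but Zfp36 had UMIs in too few cells to be counted at 0 h. The list medians were -0.34 and 0.11, beside 0.08 over all genes.

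The genes with the most similar course over the 7 libraries were found by Pearson's r of log2(CPM + 1), among 8044 genes with at least 10 CPM in a library. The libraries share their hours and treatments, so many genes reach a high r. Btg2 was nearest to Egr1 (r = 0.994), followed by Chka and Arc, and Dusp2 was nearest to Egr2 (0.996), followed by Ier2 and Cdc42ep4. Dusp2 had 335 CPM in Veh.LPS.1 and 229 in DHA.LPS.1, and at most 25.2 in the other 5 libraries.

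Osm, a cytokine gene, was nearest to Junb (0.998), followed by Spty2d1 and Fosl2. Nfkbia, the gene of an inhibitor of NF-κB, was nearest to Ier3 (0.997), followed by Maff and Nfkbiz. Klf6 was nearest to Atf3 (0.994), followed by Creb5 and the chemokine gene Ccl4, each with its highest level in Veh.LPS.4. The 3 nearest were Fbxo34, Usp38 and Ccnt1 for Fos, Jun, Slc20a1 and Ttll3 for Fosb, Chka, Slc20a1 and Egr1 for Jun, Kansl1l, Tank and Siah2 for Jund, and Cdc42ep4, Taf7 and Pcf11 for Ier2, with r of at least 0.983.

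Among the 10 genes, r over the 7 libraries was 0.994 for Fosb with Jun and 0.993 for Egr2 with Ier2. It was lowest for Fos with Atf3, at -0.23, and was 0.36 for Egr1 with Atf3. Fos was low at 4 h where Atf3 was high.

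The barcodes with 20% or more mt- UMIs, left out above, were also measured, as CPM outside mt- genes. No limit on UMIs or genes was put on them, so they can also differ from the kept cells in depth. Ier3 was higher in them than in the kept cells of every library, at 2.23-fold in Con, 1.85 in Veh.LPS.0, 1.82 in DHA.LPS.0, 2.19 in Veh.LPS.1, 2.62 in DHA.LPS.1, 1.48 in Veh.LPS.4 and 1.69 in DHA.LPS.4. Jund was lower in them in all 7, at 0.417 to 0.546 of the level in the kept cells. At 1 h, Egr1 had 0.493 of that level in Veh and 0.494 in DHA, and Fos 0.449 and 0.478, while Junb had 0.800 and 0.796. The 10 genes thus differed from one another in these barcodes, in which DHA libraries are rich.

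**Figure D4:**
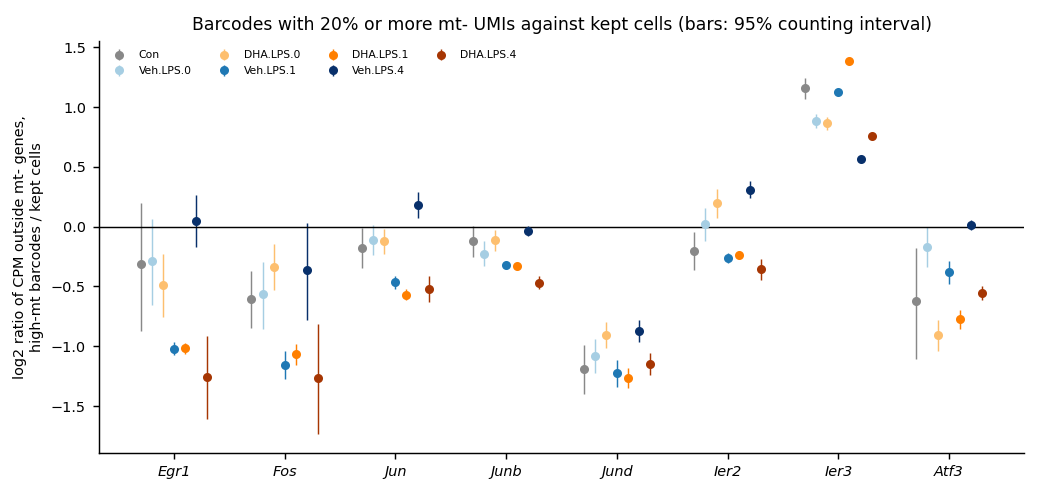
Log2 ratio of CPM outside mt- genes in barcodes of 20% or more mt- UMIs to that in kept cells (vertical axis) for 8 of the genes (Egr2 and Fosb, with few UMIs outside 1 h, are left out) in the 7 libraries (points), with 95% counting intervals. The Ier3 points are all above 0 and the Jund points all below.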

How the data were processed

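The authors deposited, for each of 7 libraries, Cell Ranger counts of UMIs per gene and cell barcode, not normalized. Per the file headers the version was 3.1.0, and the submitters' processing notes name mm10; the version in the study's methods is not the same. The members and gene lists were chosen with earlier results of these data known. The deposited counts listed 2443 to 5722 barcodes per library, and all of these were used where no filter on barcodes is named. Otherwise those with more than 20000 UMIs, at least 2000 genes and under 20% mt- UMIs were kept. No doublet caller was run. UMIs were summed per gene and library and divided by the library's total (CPM). Ratios have exact conditional binomial, levels exact Poisson and shares exact Clopper-Pearson 95% intervals, for counting error only. The ratio intervals alone were run on simulated data. Those counts were drawn from the Poisson model that the intervals assume, so the run says nothing of spread between cells or libraries. A floor of 3 counts stands for a count of 0. With 1 library per group nothing was tested: for LPS and serum, genes were called past 2-fold where 50% or more of the cells in one or both libraries held a UMI, and for DHA past 1.5-fold with 50% (0 h) or 25% (1 and 4 h), limits that follow the study.

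The alternatives were TMM and RLE factors (edgeR 4.0.16), totals without mt- genes, other barcode filters, the mean of each cell's CPM, thinning, other fold limits and other limits on cells. Named from each list were the 3 genes of largest change at 1 h against 0 h in Veh and in DHA against Veh at 1 h, among genes with at least 10 UMIs in each library, and for each member the 3 genes most like it; of these, genes with small ratios are not all repeated. Positions of 9 members are those of RefSeq's table for GRCm38; that of Egr1 is not used here. Python 3.11.15, numpy 2.4.6, scipy 1.17.1, pandas 2.3.3 and R 4.3.3 were used.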

Additional observations from a re-analysis of the deposited data

Results flagged for a closer look

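Some genes lay on opposite sides of no change in the 2 treatments or at different hours, with counting intervals that leave out a log2 ratio of 0. With 1 library per condition, none of these differences was tested.

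From 0 h to 4 h of LPS, the Egr1 log2 ratio was 0.88 in Veh and -0.25 in DHA. TMM and RLE scaling turn the sign in DHA. Without the cells of 5 or more Egr1 UMIs, which were chosen by Egr1 itself, the log2 ratios were 0.04 in Veh and -0.85 in DHA. For DHA against Veh, Egr1 had log2 ratios of 0.37 at 0 h, -0.21 at 1 h and -0.76 at 4 h. The value at 0 h went from 0.05 to 0.43 over the alternatives run. Atf3 had 0.64 at 0 h and -0.68 at 4 h, both past the 1.5-fold limit, though the former was 0.22 without a filter on barcodes and then not past it. Jun had -0.15 at 1 h and 0.26 at 4 h, and the latter turns without a filter on barcodes. Ier3 had -0.063 at 0 h, -0.11 at 1 h and 0.19 at 4 h, and the first and second of these turn without that filter. Fos had 0.22 at 0 h, which also turns without that filter, and -0.088 at 1 h.

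The barcodes with 20% or more mt- UMIs, which enter the comparisons of conditions when no filter is applied and not otherwise, held more Ier3 than the kept cells. The ratios were 2.23 in Con, 1.85 in Veh.LPS.0, 1.82 in DHA.LPS.0, 2.19 in Veh.LPS.1, 2.62 in DHA.LPS.1 and 1.69 in DHA.LPS.4.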

How the results depend on the processing

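No paired analysis was possible because each condition had 1 library, and for the same reason no library could be left out. No called gene changed direction under the alternatives run. These counts of called genes moved by more than 1.5 times, or from or to 0. With TMM factors, Fos made 1 lower gene for Veh.LPS.0 against Con, and Atf3 made 1 higher gene for DHA.LPS.4 against DHA.LPS.1, as it did with RLE factors. With no filter on barcodes, Veh.LPS.0 against Con had 0 higher genes (Atf3 missed the limit on cells, with its ratio as before), DHA.LPS.1 against DHA.LPS.0 had 5 (Egr1, Jun, Junb, Ier2 and Ier3), DHA.LPS.0 against Veh.LPS.0 had 0, DHA.LPS.1 against Veh.LPS.1 had 2 lower (Egr1 and Egr2) and DHA.LPS.4 against Veh.LPS.4 had 4 lower (Junb, Jund, Ier2 and Atf3). With no limit on the share of cells, 2 genes were higher for Veh.LPS.0 against Con and for DHA.LPS.0 against Veh.LPS.0 (Fosb and Atf3 in both), 1 was lower for Veh.LPS.4 against Veh.LPS.0 (Fos), 2 for DHA.LPS.4 against DHA.LPS.0 (Fos and Fosb) and 4 for DHA.LPS.4 against Veh.LPS.4 (Egr1, Egr2, Junb and Atf3). With the limits on cells of 25% and 50% exchanged, Fos made 1 lower gene for each of the comparisons of 4 h with 0 h. With 1.5-fold and 2-fold exchanged, Veh.LPS.0 against Con had 2 higher genes (Ier3 and Atf3) and 1 lower (Fos), DHA.LPS.4 against DHA.LPS.1 had 1 higher (Atf3), and the 3 comparisons of DHA with Veh had 0 called. Smaller moves were in Jund, which made 5 higher genes for Veh.LPS.4 against Veh.LPS.0 with TMM, RLE and 1.5-fold, 5 for DHA.LPS.4 against DHA.LPS.0 with 1.5-fold and 9 for Veh.LPS.1 against Veh.LPS.0 with 1.5-fold, and in Ier3, whose loss left 6 lower for DHA.LPS.4 against DHA.LPS.1 with TMM and RLE. Without a filter or a limit on cells other counts moved by 1 or 2 genes. Apart from alternatives that change what is counted, the cause of these moves was not tested.

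Single log2 ratios stayed within their counting interval in 40 of 100 cases with TMM, 42 of 100 with RLE, 49 of 100 with no filter on barcodes, 91 of 100 with an mt- limit of 10%, 98 of 100 with more than 10000 UMIs per barcode, 87 of 100 with the mean of each cell's CPM and 100 of 100 with totals outside mt- genes. With each cell thinned, 61 shares of cells moved out of their interval and 9 did not. Counting intervals are narrow for abundant genes, and depth limits Fosb, with 5 to 22 UMIs outside 1 h, and Egr2 outside 1 h.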
